A study of Mus musculus with 6 samples.

Results

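Eras, the Ras gene of embryonic stem cells, its relatives Hras, Nras, Mras, Rras and Rras2, and the kinase genes Akt1 and Pik3ca were followed in the RNA-seq of wild type and Htt-null mouse embryonic stem cells (mESCs). These 8 genes were chosen by name out of the 23412 genes of the table. 7 were found under their present symbol, and Hras was found under its older symbol Hras1. Eras was included because it was lower in the Htt-null line, so its difference between the lines is given as a description. Where Eras is counted among genes that pass a test between the lines, nothing is read from that. The study compared 3 libraries of R1, the parental wild type mESC line, with 3 libraries of HN, a line of genotype Htt-/- in which the promoter and exon 1 of Htt are deleted. Both lines are of strain 129Sv and were kept undifferentiated without feeder cells, in serum medium with leukemia inhibitory factor and inhibitors of the FGF and VEGF receptors (SU5402), of MEK (PD184352) and of GSK3 (CHIR99021). Libraries of the same replicate number were collected on the same date. Each genotype is represented by 1 line, so the loss of Htt and any other difference between R1 and HN cannot be told apart.

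Ras proteins are small GTPases that pass signals from receptors to kinase cascades while bound to GTP. Exchange factors load them with GTP, and GTPase activating proteins switch them off. ERas is expressed in undifferentiated ES cells, stays in the active state without the usual exchange cycle, and is known for driving ES cell growth through phosphoinositide 3-kinase (PI3K). PI3K, whose catalytic subunit p110 alpha is encoded by Pik3ca, makes the membrane lipid PIP3, which recruits the kinase Akt. PIP3 is removed again by lipid phosphatases such as the SHIP proteins.

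Eras lies on the minus strand of the X chromosome from 7924276 to 7928607 (GRCm38, GENCODE M21). It has 1 annotated transcript of 1077 bases in 2 exons. Since Eras is the member with the largest difference, the 250 bases before its start are shown 5′ to 3′ on its own strand, as RefSeq gives them for GRCm38.p6 (chrX:7928608-7928857), with matches to the GC box in capitals.
Eras promoter: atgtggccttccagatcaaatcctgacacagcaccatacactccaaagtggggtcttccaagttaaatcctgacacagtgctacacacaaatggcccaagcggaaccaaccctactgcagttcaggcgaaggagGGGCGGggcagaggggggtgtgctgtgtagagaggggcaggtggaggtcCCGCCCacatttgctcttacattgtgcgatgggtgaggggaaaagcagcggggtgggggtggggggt
The GC box, searched as GGGCGG on both strands, matched at 2 places that begin 116 and 67 bases before the start. At least 1 match was found in 32.7% of the 32851 promoters of this length. The CCAAT box (CCAAT), the TATA box (TATAAA) and the octamer motif (ATGCAAAT), searched in the same way, were not in this window. They occurred in 33.8%, 12.4% and 1.60% of promoters. No factor binding was measured in these libraries.

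Htt, the deleted gene, stood at 230, 257 and 199 normalized counts in R1 against 18.3, 58.1 and 54.2 in HN. A normalized count is the number of reads on the exons of a gene divided by the size factor of the library, as the authors deposited it. Wherever 3 values of a line are listed, they are those of replicates 1, 2 and 3 in this order. Libraries held between 1640391 and 3866717 reads on genes. The 8 mESC marker genes, among them Pou5f1, Nanog and Sox2, summed to between 12129 and 17914 normalized counts in R1 and between 12845 and 17304 in HN libraries. With a block for the collection date, limma's test, described below, found Nanog, Klf4, Esrrb and Dppa5a higher and Zfp42 lower in HN. These are 5 of the 8, beside 9.48% of all genes tested. Without the block 0 of the 8 passed by limma (2 at an unadjusted p-value under 0.05), 0 by edgeR and 1, Zfp42, by DESeq2. At that unadjusted limit 843 of the 14276 genes tested passed by limma. The 6 fibroblast and feeder markers summed to between 36.2 and 99.7 in R1 and between 11.3 and 69.3 in HN libraries, the 5 primitive endoderm markers to between 31.1 and 149.6 and between 33.3 and 123, the 3 primed epiblast markers to between 37.7 and 109 and between 19.1 and 62.8, and the 3 neural progenitor markers to between 38.5 and 116 and between 62.4 and 117. Of these, the fibroblast marker Thy1 and the epiblast marker Otx2 passed by limma with the block, both lower in HN. In both lines replicate 3 had the lowest sum of the mESC markers and the highest sum of each other list. None of the markers was at 0 in all libraries, and their part in the differences given here was not tested.

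Eras was read at 194, 177 and 137 normalized counts in R1 against 48.7, 76.6 and 49.8 in HN. The highest HN library was thus well under the lowest of R1. The lines averaged 169 ± 28.9 in R1 and 58.3 ± 15.8 in HN (SD, n = 3), 2.90-fold higher in R1. On the scale of log2(normalized count + 1), used for all differences here, HN minus R1 was -1.54 (standard error 0.25). Within the same-date pairs the log2 difference was -1.97, -1.20 and -1.45 for replicates 1, 2 and 3, so that HN was lower in each. These values rest on 102 to 239 Eras reads per R1 library and 40 to 108 per HN library. In bulk libraries, fewer cells that express a gene and less RNA per cell cannot be told apart. The log2 difference of Eras stayed between -1.75 and -1.40 over 19 other ways of processing the data or leaving out libraries. All of these reuse the same libraries. In limma the block, the filters on low values and the variance trend cannot change this estimate.

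**Figure D1:**
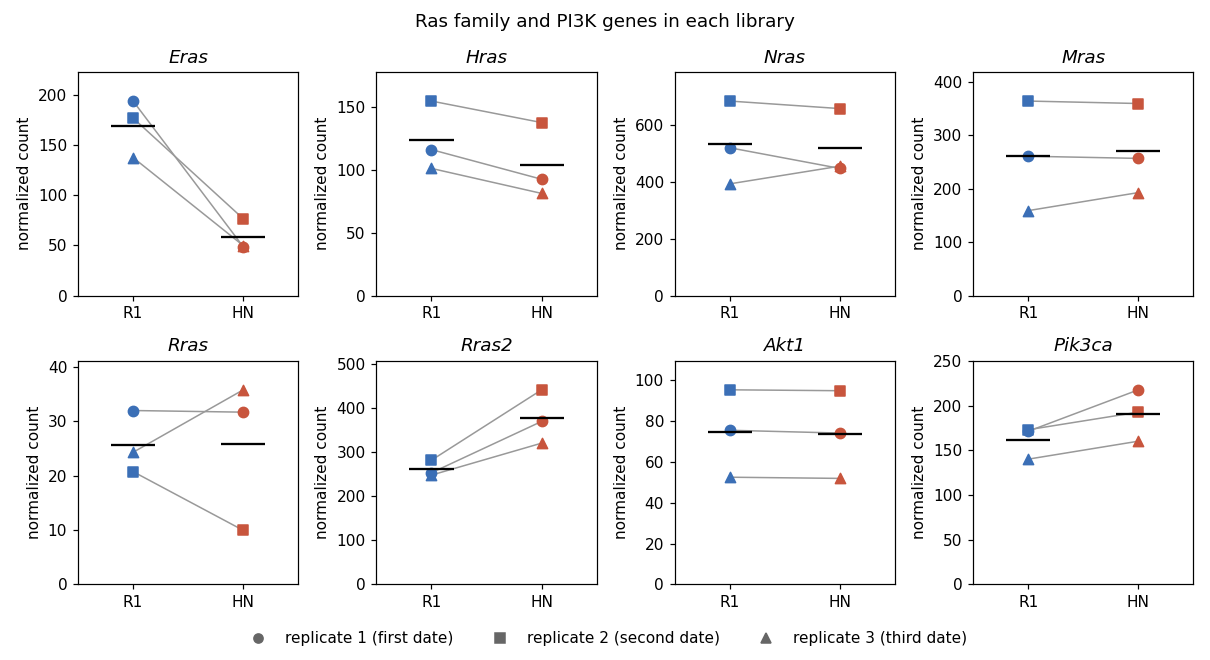
Normalized count (vertical axis, linear, from 0) of each of the 8 genes in the R1 and HN libraries, with 1 panel per gene, grey lines that join the libraries of the same collection date, marker shapes for the replicate and black bars for the mean of a line (n = 3). Eras falls from between 137 and 194 in R1 to between 48.7 and 76.6 in HN, Rras2 lies higher in every HN library, and the lines of the other 6 genes overlap.

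The classical Ras genes Hras and Nras encode the widely expressed GTPases that signal through Raf kinases and PI3K. Hras (chromosome 7, 141189105 to 141194005, minus strand) stood at 116, 155 and 101 normalized counts in R1 against 92.5, 138 and 81.2 in HN. Its log2 difference was -0.27 (standard error 0.26, adjusted p = 1 by limma), and HN was lower in all 3 pairs although the lines overlapped. Nras (chromosome 3, 103058285 to 103067914, plus strand) had 521, 685 and 394 in R1 and 448, 658 and 456 in HN. It was the member with the most reads, and its log2 difference of -0.02 (standard error 0.24, adjusted p = 1 by limma) took the other sign without certain single libraries.

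The R-Ras genes Rras and Rras2 and the related Mras encode GTPases of the same branch. MRas forms a complex with Shoc2 and protein phosphatase 1 that acts on Raf kinases. Rras2 (chromosome 7, 114046782 to 114117781, minus strand) stood at 253, 282 and 248 normalized counts in R1 against 370, 442 and 321 in HN. Each HN library exceeded each R1 library, and the line averages were 261 ± 18.2 for R1 and 377 ± 60.9 for HN (SD, n = 3), a 1.45-fold ratio. The log2 difference was 0.52 (standard error 0.19), and 0.54, 0.65 and 0.37 within the pairs of replicates 1, 2 and 3. It missed the threshold of limma (adjusted p = 0.660), and it passed with the replicate number, which stands for the collection date, as a block (adjusted p = 0.00113 by limma). On the recovered reads it likewise passed only with that block, both by edgeR (adjusted p = 1.74e-04, and 0.580 without it) and by DESeq2 (adjusted p = 0.0128, and 0.358 without it). Over all alternatives its adjusted p ranged from 1.74e-04 to 1.

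Mras (chromosome 9, 99385420 to 99437381, minus strand) stood at 261, 364 and 159 normalized counts in R1 against 257, 359 and 193 in HN. The spread within a line was much wider than the difference between the lines, which was 0.08 on the log2 scale (standard error 0.31, adjusted p = 1 by limma). Without the libraries of the third date the log2 difference was -0.02. Rras (chromosome 7, 45017961 to 45021647, plus strand) was the member with the fewest reads, at 31.9, 20.7 and 24.3 normalized counts in R1 against 31.6, 9.92 and 35.7 in HN. HN replicate 2, with 14 reads, was the lowest library, and the pairs of replicates 1, 2 and 3 differed by -0.01, -0.99 and 0.54 on the log2 scale. The difference between the lines was within the spread between replicates (log2 difference -0.15, standard error 0.46, adjusted p = 1 by limma).

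Of the kinase genes, Akt1 (chromosome 12, 112653821 to 112674884, minus strand), which encodes one of the Akt kinases, stood at 75.6, 95.4 and 52.6 normalized counts in R1 against 74.2, 95.0 and 52.0 in HN. The libraries of a date were close to each other, with log2 differences of -0.03, -0.01 and -0.02 within the pairs. Across the lines the difference was -0.02 (standard error 0.30, adjusted p = 1 by limma, and 0.976 with the block, standard error 0.17). Pik3ca (chromosome 3, 32397671 to 32468486, plus strand) had 171, 173 and 140 in R1 and 218, 193 and 160 in HN. HN was higher in all 3 pairs, but the lines overlapped and the log2 difference of 0.23 (standard error 0.21) missed limma's threshold unblocked (adjusted p = 1) and blocked (adjusted p = 0.291).

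All 8 members passed the filter on low values (a mean normalized count of at least 5). A gene is described as called when its p-value, adjusted by Benjamini-Hochberg over all genes tested, is under 0.05 and its log2 difference is beyond 1 in either direction. By this rule 1 member, Eras, was called, beside 0.245% of the 14276 genes tested (0.119% higher and 0.126% lower in HN, with or without the fold limit), and since Eras was chosen for this difference nothing is read from the count. With the block the count was also 1, beside 1.95% of genes (0.911% higher and 1.04% lower). Unblocked, it was 0 without R1 replicate 1, without R1 replicate 2, without HN replicate 1, without both libraries of the third date, and in limma without the variance trend. The other 7 members lay between -0.27 and 0.52, and 6 of them within 0.3 of 0. The median log2 difference was -0.02 over the members and -0.01 over all genes tested. At an adjusted p-value alone, 1 member passed without the block and 2 (Eras and Rras2) with it, where 9.48% of genes passed. The lines did not overlap for 2 of the 8 members and for 10.8% of genes. Members were picked with earlier results of this comparison known, so these counts are descriptions.

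**Figure D2:**
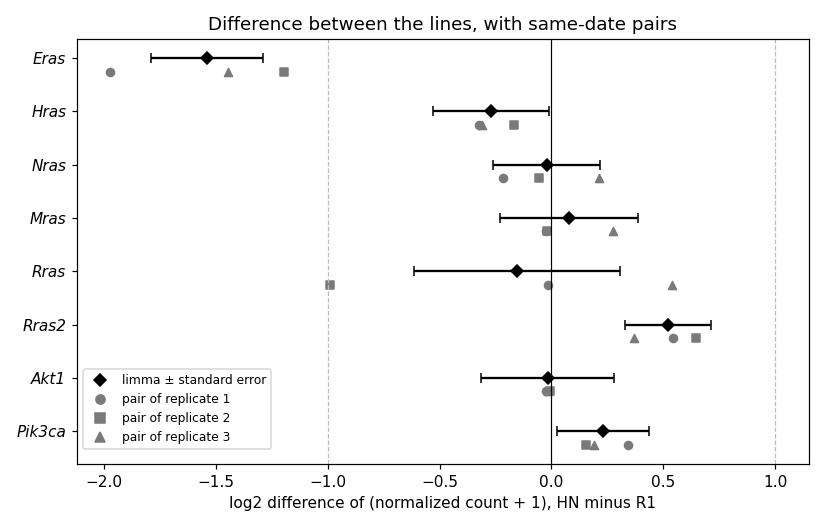
Log2 difference of (normalized count + 1), HN minus R1, of each member (horizontal axis), with black diamonds for the limma estimate ± standard error, grey marks for the 3 same-date pairs and dashed lines at -1 and 1. Eras lies at -1.54 and Rras2 at 0.52, and the other 6 estimates lie between -0.27 and 0.23.

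Levels of different genes were compared as normalized counts per kilobase of exon. In each R1 library Eras had the highest level per kilobase of the 6 Ras family members, from 128 to 180 (mean 157 ± 26.8, SD, n = 3). Nras followed with 73.8 to 128, Rras2 with 69.8 to 79.3, Mras with 31.0 to 70.9, Hras with 27.1 to 41.4 and Rras with 18.5 to 28.5. The order was the same in all 3 R1 libraries, but over the 3 libraries the ranges of each neighbouring pair overlapped. In HN the order was led by Rras2 in every library, with 90.2 to 124 per kilobase, then Nras with 84.0 to 124. Eras, with 45.2 to 71.1, had rank 4 in HN replicate 1 and rank 3 in HN replicates 2 and 3, overlapping with Mras (37.6 to 70.0). Hras had 21.8 to 36.8 and Rras 8.85 to 31.9. With the length of the longest transcript in place of all exons, Nras was above Rras2 in HN replicates 2 (147 against 125 per kilobase) and 3 (102 against 90.7), and Eras had rank 4 in HN replicate 2, below Mras (71.1 against 76.4).

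Of the summed level per kilobase of the 6 Ras family members, Eras took 39.2%, 32.7% and 36.4% in R1 against 13.4%, 16.4% and 14.8% in HN. The means were 36.1% ± 3.27 in R1 and 14.9% ± 1.46 in HN (SD, n = 3). Nras took 22.6% ± 2.55 in R1 and 26.9% ± 1.76 in HN, and Rras2 17.1% ± 2.45 in R1 and 29.4% ± 1.31 in HN (SD, n = 3). Without Eras the sum was 280 ± 57.6 per kilobase in R1 and 307 ± 50.2 in HN, and the lines overlapped. With the longest transcript, the share of Eras was 33.2% in R1 and 13.5% in HN. These shares contain the difference for which Eras was chosen and are not tested.

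**Figure D3:**
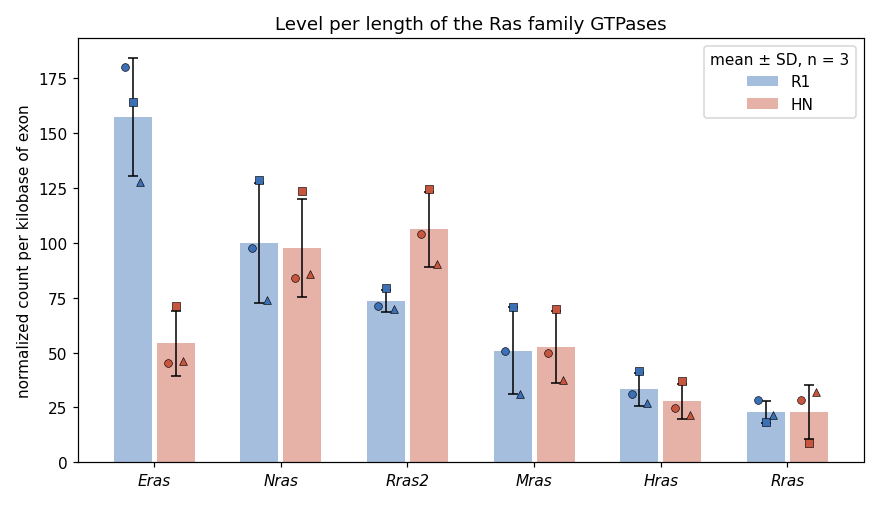
Normalized count per kilobase of exon (vertical axis, linear, from 0) of the 6 Ras family members, with bars for the mean and error bars for the SD of 3 libraries of R1 or HN, and points for the libraries with circles, squares and triangles for replicates 1, 2 and 3. Eras is the tallest bar in R1 (157) and lies near Mras in HN (54.2 against 52.5), where Rras2 (106) and Nras (97.7) are highest.

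Several members differed between the dates on which the cells were collected. With the line as a covariate, 5 of the 8 members differed between the 3 dates in limma's F test (adjusted p under 0.05 over all genes), while 46.0% of all genes tested did. Mras had the smallest adjusted p-value (3.43e-06), and its mean of log2(normalized count + 1) was 1.04 higher on the second date than on the third. Nras (adjusted p = 2.26e-04 by limma), Akt1 (0.00417), Hras (0.00593) and Rras (0.0226) also passed. Akt1 was 0.85, Hras 0.68 and Nras 0.66 higher on the second date than on the third. Rras ran the other way, with a difference of -0.98 between the same dates. Eras (adjusted p = 0.104 by limma), Rras2 (0.109) and Pik3ca (0.10) did not pass. Akt1, Hras, Mras and Rras2 were highest on the second and lowest on the third date in both lines. The share of all genes with this order was not counted, so nothing is read from it. The libraries of replicate 2 were also the deepest, with 3604420 reads in R1 and 3866717 in HN against 1640391 and 2171933 for replicate 3. Marker genes differed between these dates as well. On the log2 scale replicate 2 minus replicate 3 was 0.80 for Pou5f1 and 0.76 for Esrrb, and 0.20 or less for the other mESC markers. It was -2.33 for Gata4, -2.18 for Gata6, -2.08 for Sox17 and -1.73 for Pou3f1, all with a mean under 50. Each of these named markers passed limma's F test between the dates. The part of depth or of cell state in the date differences of the members was not tested. Over all genes tested the median of the second minus the third date was 0.07. The number of members that passed fell to 3 without R1 replicate 2, to 2 without HN replicate 2 and to 3 with quantile normalization.

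Since Eras is X-linked, the genes within 500 kb on either side of it were examined. Of 41 such genes 31 were tested, and 0 of them passed limma's test without the block, with or without the fold limit. 1 of the 31, Was, had an unadjusted p-value under 0.05, and 0 passed by edgeR or by DESeq2 without the block. With the block, 1 of the 31 passed on its adjusted p-value alone, beside 9.48% of all genes. This was Ebp, a sterol isomerase gene (log2 difference 0.44, adjusted p = 0.0276 by limma). Ebp and Was are named here after their values were seen. With the block edgeR also passed Ebp (adjusted p = 0.00684) and DESeq2 did not (adjusted p = 0.225). Was, a cytoskeletal regulator gene, had a log2 difference of 1.33 at a mean of 9.36 normalized counts, which passed by edgeR with the block (adjusted p = 0.0390) and not by limma with it (adjusted p = 0.0597). The median log2 difference of the 31 genes was -0.06, 20 of them being below and 11 above 0, and the median was 0.09 over the 438 X-linked genes tested. The 13 neighbours with a mean of at least 50 normalized counts lay between -0.26 and 0.44. Hdac6, a deacetylase gene on the same strand whose 3′ end lies 1512 bp upstream of the Eras start, had 440, 391 and 283 in R1 against 350, 395 and 247 in HN. Its lines overlapped, with a log2 difference of -0.17 (standard error 0.24, adjusted p = 1 by limma).

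On the other side, the last exon of Pcsk1n, which encodes a neuroendocrine protease inhibitor, runs toward Eras on the plus strand. It covers the last 135 bases of the Eras transcript (12.5% of its exon length, chromosome X from 7924276 to 7924410). The library kit used does not mark strand, so reads from that stretch cannot be assigned to either gene by strand. Pcsk1n itself had only 19.2, 5.92 and 16.2 normalized counts in R1 against 4.87, 7.80 and 7.58 in HN. The lines overlapped (log2 difference -0.81, standard error 0.60, adjusted p = 1 by limma). Of the 50-base stretches of the Eras transcript 8.37% occur in another gene's transcripts, all of them in Pcsk1n. For Nras and Pik3ca these shares were 0.733% and 0.353%, and for the other members 0%.

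**Figure D4:**
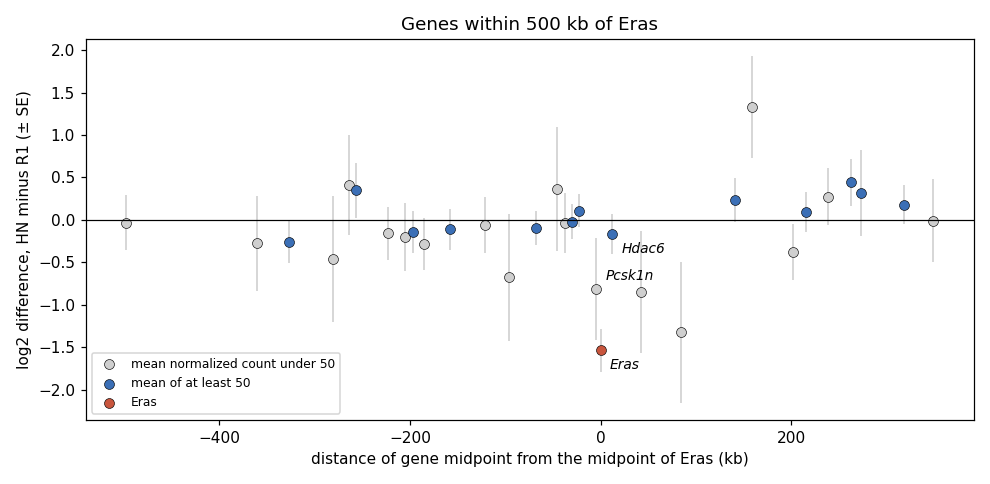
Log2 difference, HN minus R1 (vertical axis, ± standard error), of the tested genes within 500 kb of Eras against the distance between gene midpoints in kb (horizontal axis). Eras lies at -1.54, while the genes with a mean of at least 50 normalized counts (blue) lie between -0.26 and 0.44, and the widest error bars belong to genes under 50 (grey).

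The rest of the pathway was examined with 8 lists of genes grouped by function, and 98 of their genes were tested. None of the 98 passed limma's test without the block, with or without the fold limit. At an unadjusted p-value under 0.05, 5 of them passed (Rasgrp4, Plce1, Pik3cd, Inpp5d and Tcl1), as did 843 of all genes. At an adjusted p-value under 0.05 without the block, 0 passed by edgeR and 1, Inpp5d, by DESeq2. With the replicate block 8 of the 98 passed (8.16%, beside 9.48% of all genes), 5 of them higher in HN (5.46% of all genes) and 3 lower (4.02% of all genes). The share is close to that of all genes. At an unadjusted p-value under 0.05 by limma with the block 22 of the 98 passed. The share of all genes at that limit was not counted, so nothing is read from this count or from those of single lists. The median log2 difference of the 98 genes was 0.01, and 51 lay above 0.

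Around PIP3, the phosphatase list held the only pathway gene called with the block, where 1.95% of all genes were. This gene, Inpp5d, which encodes the PIP3 5-phosphatase SHIP1, stood at 719, 472 and 624 normalized counts in R1 against 237, 237 and 319.5 in HN. The lines did not overlap, averaging 605 ± 124 for R1 and 265 ± 47.6 for HN (SD, n = 3). The log2 difference was -1.18 (standard error 0.22), which missed limma's threshold without the block (adjusted p = 0.0564) and passed with it (adjusted p = 1.41e-09). Over the alternatives the log2 difference stayed between -1.35 and -1.05. Without the block it did not pass by edgeR (adjusted p = 0.0882), and it passed by DESeq2 (adjusted p = 9.86e-05). It also passed in limma with no filter on low values (adjusted p = 0.0188), with a filter at a mean of 50 (0.0497), without R1 replicate 2 (0.0339) and without HN replicate 3 (0.0325). No other gene reported from the list passed with the block. Phlpp1, an Akt phosphatase gene and the highest of the list, had a log2 difference of 0.11 (standard error 0.31, adjusted p = 0.798 by limma with the block) that took the other sign without certain single libraries.

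Of the 7 PI3K subunit genes tested besides Pik3ca, 1 passed with the block, beside 9.48% of all genes. This was Pik3cd, which encodes p110 delta and is named here after its values were seen. It stood at 35.1, 34.8 and 33.7 normalized counts in R1 against 59.6, 70.9 and 53.1 in HN. The lines did not overlap, with a log2 difference of 0.80 (standard error 0.25, adjusted p = 0.512 by limma, and 0.0089 with the block), and DESeq2 with the block did not pass it (adjusted p = 0.176). Among the genes of the list with a mean of at least 50, Pik3cb, the gene of p110 beta, had the highest log2 difference (0.34) and the regulatory subunit gene Pik3r2 the lowest (-0.08), which took the other sign without certain single libraries, and neither passed with the block (adjusted p = 0.217 and 0.834 by limma).

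Of the 18 genes of the list of Akt kinases, activators and targets, 4 passed by limma with the block (22.2%, beside 9.48% of all genes) and 0 without it (1 at an unadjusted p-value under 0.05, and 0 by edgeR or DESeq2). DESeq2 with the block passed only Tcl1 (adjusted p = 1.50e-04), and not Pdpk1 (0.175), Foxo4 (0.176) or Tsc2 (0.239). Tcl1, an Akt coactivator gene expressed in ES cells, stood at 422, 305 and 275 normalized counts in R1 against 251, 143 and 193 in HN. No HN library reached an R1 library (log2 difference -0.78, standard error 0.25, adjusted p = 0.513 by limma, and 1.62e-05 with the block). Foxo4, a transcription factor gene whose product Akt restrains, differed by -0.54 with overlapping lines (adjusted p = 1 by limma, and 0.0168 with the block). Pdpk1, which encodes the kinase that activates Akt, was at 407, 380 and 318 in R1 against 506, 461 and 414 in HN. Its HN libraries were all above those of R1, with a log2 difference of 0.32 (standard error 0.19, adjusted p = 1 by limma, and 0.0348 with the block). Tsc2, a brake on mTORC1 that Akt phosphorylates, differed by 0.40 with overlapping lines (adjusted p = 1 by limma, and 0.0328 with the block). The difference of Foxo4 was -0.19 without R1 replicate 2, -0.28 without HN replicate 3 and -0.88 without R1 replicate 3. That of Tsc2 was 0.11 without R1 replicate 3, 0.17 without HN replicate 2, 0.25 without both libraries of the third date and 0.60 without R1 replicate 2. Foxo4 and Pdpk1 are named after their values were seen. Tcl1, Foxo4 and Tsc2 also differed between the collection dates (adjusted p = 0.00174, 2.90e-05 and 1.64e-04 in limma's F test), as did Inpp5d (0.0337).

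Among the exchange factors 1 of 7 tested genes passed with the block, beside 9.48% of all genes. Rasgrp4, named after its values were seen, had 29.8, 26.6 and 29.7 normalized counts in R1 against 59.6, 48.9 and 39.0 in HN. The lines did not overlap, with a log2 difference of 0.74 (standard error 0.28, adjusted p = 0.696 by limma, and 0.033 with the block), which DESeq2 with the block did not pass (adjusted p = 0.324). Sos1, the exchange factor of receptor tyrosine kinases and the only one with a mean of at least 50, differed by 0.25 without overlap (adjusted p = 0.227 by limma with the block). The list of GTPase activating proteins and their Spred partners held 12 tested genes. With the block 3 of them had an unadjusted p-value under 0.05 by limma, beside 22 of the 98 pathway genes. After adjustment, with the block, 0 of the 12 passed by limma, 1 by edgeR (Spred1) and 0 by DESeq2. Nf1, the neurofibromin gene, was the highest at 0.32 and Rasa3 the lowest at -0.40 among those with a mean of at least 50 (adjusted p = 0.107 and 0.148 by limma with the block).

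The effector list, which holds the Raf kinases and the Shoc2 complex, had 1 gene of 16 past the test with the block, beside 9.48% of all genes. Plce1, a phospholipase C gene whose product binds Ras, stood at 67.1, 65.8 and 43.1 normalized counts in R1 against 120.5, 138 and 71.5 in HN. The lines did not overlap, with a log2 difference of 0.87 (standard error 0.29, adjusted p = 0.581 by limma, and 3.66e-04 with the block), and it also differed between the dates (adjusted p = 0.00397 in limma's F test). Tiam1, an exchange factor for Rac, was the lowest with a mean of at least 50, at -0.12 (adjusted p = 0.744 by limma with the block). For lipid processing, needed for membrane anchoring of Ras, 9 genes were tested. With the block 2 of them had an unadjusted p-value under 0.05 by limma, beside 22 of the 98 pathway genes. After adjustment, with the block, 0 of the 9 passed by limma and 0 by DESeq2. Among those with a mean of at least 50 the farnesyltransferase subunit gene Fnta was lowest at -0.35 (adjusted p = 0.0536 by limma with the block, and 0.0313 by edgeR with the block), and the CAAX protease gene Zmpste24 was highest at 0.26. Of the 21 other Ras family GTPase genes tested 0 passed by limma with the block (3 at an unadjusted p-value under 0.05, and 0 by edgeR or DESeq2 with the block), Rap1a being lowest at -0.51 and Rap2a highest at 0.27 among those with a mean of at least 50 (adjusted p = 0.0816 and 0.426 by limma with the block).

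**Figure D5:**
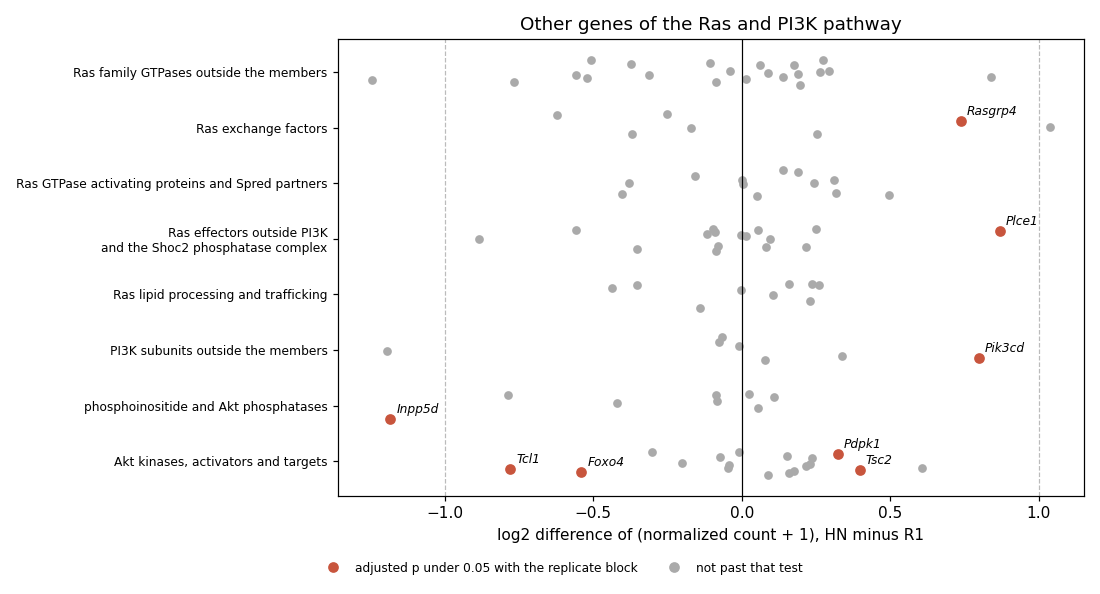
Log2 difference of (normalized count + 1), HN minus R1 (horizontal axis), of the 98 tested pathway genes in 8 lists (rows, with points spread vertically only for legibility), with dashed lines at -1 and 1. The 8 genes past limma's test with the replicate block (red) run from Inpp5d at -1.18 to Plce1 at 0.87, and none of the 98 passed without the block.

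The genes whose pattern over the 6 libraries was most like that of Eras were sought by Pearson's correlation of log2(normalized count + 1) among 7658 other genes with a mean of at least 50. The 5 highest were Cdc14b (0.997), a phosphatase gene, Cenpp (0.993), a centromere protein gene, Snrpa1 (0.992), a spliceosome gene, Acadm (0.990), a fatty acid oxidation gene, and Adam23 (0.989), an adhesion gene. All 5 were lower in HN, with log2 differences of -0.78, -0.51, -0.93, -0.55 and -1.99. Neither for Eras nor for any of these 5 genes did the lines overlap, so the correlations are over 2 separate groups of 3 libraries and carry the difference between the lines. None of the 5 is X-linked. Of the other members, the correlation with Eras was 0.63 for Hras, 0.29 for Nras, 0.27 for Akt1 and 0.16 for Mras. It was -0.45 for Pik3ca and -0.71 for Rras2, whose lines did not overlap either. These correlations also carry the difference between the lines. Rras, with a mean under 50, was not compared.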

How the data were processed

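Total RNA of 3 R1 and 3 HN mESC batches was made into TruSeq RNA v2 libraries and sequenced. The authors used STAR for alignment to mm10/GRCm38, Picard for the removal of PCR duplicates, HTSeq for counting on exons and DESeq2 for normalization. Versions, annotation and HTSeq's strand setting are not given in the sources used here. The values as deposited are a signal in normalized counts, the reads of a gene divided by the size factor of its library. In 100% of values this was a whole multiple of 1 read (within 0.01 reads), so reads were recovered for depth and count-based alternatives. Unused columns of per-sample values numbered 0.

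Values were compared as log2(normalized count + 1) with limma 3.58.1 (variance trend, R 4.3.3) for 14276 genes with a mean of at least 5, with Benjamini-Hochberg adjustment over all of them. No block was set, as the methods of the study name none. The labels give the same collection date to libraries of the same replicate number, so the replicate block is given beside results it changes. After subtraction of line means, the libraries of a date had correlations of 0.25, 0.69 and 0.77 across genes (replicates 1, 2 and 3). Replicates of a line differed by more than sampling noise (chi-square of 4.76 to 10.0 per degree of freedom). They are batches of cells of 1 line each, so p-values measure the spread between batches. edgeR 4.0.16 and DESeq2 1.42.0 were run on the recovered reads. The code of the fits was also run on simulated data. Only a small set of genes had a date effect there, unlike in these data, so that run does not measure how the fits perform here. Reads without molecular identifiers need not be independent molecules. An exact permutation test of 3 against 3 libraries cannot give a p-value below 0.1.

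The members, gene lists and naming rule were chosen with earlier results of these data known. Named by this rule were all members, Htt, and pathway genes called with or without the block. So were the highest and lowest gene of each list with a mean of at least 50. The rule also named the closest tested gene on each side of Eras, called genes within 500 kb of it and the 5 most like it. Outside the rule, Pik3cd, Rasgrp4, Foxo4, Pdpk1, Spred1, Ebp and Was were named after their values were seen. Of the listed genes, 6 below the mean of 5 (Rit2, Rasd1, Rergl, Rasl12, Rasgrp3 and Pik3cg) were not analysed here, and some listed items are not reported here. Positions and exon lengths come from GENCODE M21, and the promoter from RefSeq. Other settings were pseudocounts of 0.1 and 10, quantile normalization, median centring, no filter or one at a mean of 50, no variance trend, and each library left out. Leaving out both libraries of the third date was chosen after seeing the data.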

Additional observations from a re-analysis of the deposited data

How the results depend on the processing

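The log2 difference of Eras and its share of the Ras family level kept their direction under every alternative run. These alternatives reuse the same libraries, and Eras was chosen for this difference. With the replicate block, which uses the shared collection dates, 130 genes were called higher and 148 lower in HN, against 17 and 18 without it. edgeR with the block called 132 and 152, DESeq2 47 and 32, and DESeq2 with the block 75 and 61. Median centring called 27 higher, and limma without the variance trend called 0 in either direction (and 0 members). Leaving out single libraries gave 3 to 31 higher and 4 to 26 lower genes, 0 to 1 members called and 2 to 6 members that differed between dates (3 with quantile normalization). Without both libraries of the third date, a setting chosen after seeing the data, 0 members were called. Of the pathway genes, 1 (Inpp5d) was called with the replicate block, by edgeR with the block, by DESeq2 with and without it, with no filter and at a mean of at least 50, and 0 to 1 when single libraries were left out. At the adjusted p-value alone 8 passed with the block, 10 by edgeR with the block, 1 by DESeq2, 3 by DESeq2 with the block, 1 with no filter, 1 at a mean of at least 50 and 0 to 1 when single libraries were left out.

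The sign changed when single libraries were left out for Nras (-0.22 to 0.18), Mras (-0.24 to 0.36), Rras (-0.47 to 0.40), Akt1 (-0.24 to 0.21), Pik3r2 (-0.33 to 0.22) and Phlpp1 (-0.10 to 0.44). It also changed for Mras without the third date (-0.020), and for Rras (0.13) and Akt1 (0.0047) with quantile normalization. The cause was not tested. With one arm at 2 libraries the spread is pooled over both lines. The members with the fewest reads were Rras, with 14 to 33 per library, and Akt1, with 39 to 134, and the part of depth in their spread was not tested.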
